A study of Caenorhabditis elegans with 9 samples.

Results

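The mitochondrial unfolded protein response was followed through 7 genes, hsp-6, hsp-60, dnj-10, clpp-1, atfs-1, dve-1 and ubl-5, chosen by name among the 21776 genes of the deposited table. All 7 were measured and all 7 passed the filter on low counts, which left 13434 genes for testing. The samples were intestines dissected from adult Caenorhabditis elegans of the wild-type strain N2. Worms were raised at 20 °C from the first larval stage for 4 days in mCeHR2, a liquid culture medium, with 2, 20 or 400 µM heme. The intestines of 3 worms were pooled for a library and copied with SMARTScribe reverse transcriptase and PCR, and there were 3 libraries per dose. Whether the 3 libraries of a dose stem from different cultures is not stated in the labels. The p-values therefore measure only the spread between these libraries, which may be technical.

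Mitochondria keep their own set of chaperones and proteases, encoded in the nucleus and imported as proteins. When import or folding inside the organelle falters, the transcription factor ATFS-1 is kept out of the mitochondrion and enters the nucleus, where genes for these chaperones and proteases are induced. In C. elegans the response is commonly read in the intestine through hsp-6 and hsp-60. The worm makes no heme of its own and takes it from its food, and several complexes of the mitochondrial respiratory chain carry heme.

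On the WBcel235 assembly, hsp-6 lies on chromosome V from 4824124 to 4826760 and atfs-1 on the same chromosome from 14193663 to 14197700. On chromosome III lie hsp-60, from 1619742 to 1625803, and dnj-10, from 8631165 to 8633565. The gene clpp-1 lies on chromosome II from 10300714 to 10302842, dve-1 on chromosome X from 427035 to 433812, and ubl-5 on chromosome I. All 7 are annotated as protein-coding. Only clpp-1 overlaps another gene of the table: mdt-22 shares 673 bases with it on the opposite strand, and reads of the pair cannot be told apart where counting ignores strand.

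Library totals ran from 44385011 to 72960600 counts, and ribosomal RNA took 2.31 to 42.1% of them, most in 20 µM replicates 2 and 3. All 12 intestine markers, among them elt-2, ges-1 and vha-6, had counts in every library, and their summed share of the library was 4.36, 15.3 and 15.7% with 2 µM heme, 16.96, 2.29 and 19.2% with 20 µM, and 9.74, 20.2 and 18.7% with 400 µM. Most of the variation in that sum lay in the yolk protein genes vit-2 and vit-6, which took 0.0861 to 17.5% of a library. The 10 other intestine markers took 2.58, 2.51 and 2.52% with 2 µM, 2.84, 2.20 and 1.69% with 20 µM, and 3.33, 3.67 and 4.13% with 400 µM. The 18 genes marking germline and oocytes took 0.0157 to 0.0370% at 2 µM, 0.00611 to 0.0235% at 20 µM and 0.166 to 0.427% at 400 µM. The 43 sperm genes took 0.145 to 0.150%, 0.00767 to 0.0299% and 0.138 to 1.52% in the same order of doses, and of these 2 or fewer were at 0 in any library at 2 or 400 µM. The other tissues' lists were smaller: 10 pharynx genes took 0.000110 to 0.0717%, 7 body wall muscle genes 0.00471 to 0.0737%, 7 hypodermis genes 0.00360 to 0.314%, and 8 neuron genes 0.00446 to 0.0434% across the 9 libraries. Of the pharynx list, ceh-22 was at 0 in 6 of the 9 libraries, while the pharyngeal myosin gene myo-2 had counts in all, from 0.246 to 156 CPM. Of the neuron list, unc-17 was at 0 in 8 of the 9, while ric-19 (14.5 to 51.5 CPM) and egl-21 (16.7 to 73.2 CPM) had counts in all, and flp-1 reached 242 CPM in 20 µM replicate 2. Whether other tissue had a part in the values below was not tested. Fewer cells of a type and less RNA per cell cannot be told apart in these bulk samples. Replicates 2 and 3 at 2 µM resembled each other closely (Pearson r across genes of log2 CPM 0.993, where the 8 remaining same-dose pairs had 0.775 to 0.952). They differed by more than counting noise, with a median chi-square per gene of 2.91 where 0.455 would come from counting alone. The other same-dose pairs had 18.6 to 99.0. This excess cannot tell separate pools of worms from repeated preparations of a single pool, since both can exceed counting noise. The libraries were kept separate as labelled.

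Of the 7 genes, the chaperones hsp-6 and hsp-60 and the protease clpp-1 had their highest level in all 3 libraries at 2 µM heme. For clpp-1 this depended on how the libraries were scaled. The chaperone dnj-10 had its lowest mean level at 400 µM. The regulators atfs-1, dve-1 and ubl-5 had their highest mean CPM at 20 µM, with overlap between 20 µM and the other doses. Leaving out 1 library changed the order of 2 and 20 µM for atfs-1 and ubl-5. In the authors' FPKM values (scaled by gene length and library total) the mean of ubl-5 was highest at 2 µM. It was 14.7 there, beside 13.3 at 20 µM and 13.8 at 400 µM. None of the 7 passed the test over all genes in any of the 3 comparisons between doses, or in a test of any difference among the 3 doses (edgeR quasi-likelihood test, Benjamini-Hochberg adjusted p under 0.05). That test called 0.0744% of all genes between 2 and 20 µM, 0.551% between 400 and 20 µM, 0.104% between 2 and 400 µM and 0.811% for any difference.

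The gene hsp-6 encodes the mitochondrial Hsp70, which pulls proteins into the matrix and folds them. Its level was 42.3, 42.9 and 38.2 CPM (counts scaled to library size by the TMM method) in the libraries at 2 µM heme, 15.3, 9.65 and 2.32 CPM with 20 µM, and 13.6, 18.9 and 9.99 CPM with 400 µM. All libraries at 2 µM stood above all others, while those at 400 and 20 µM overlapped. The 2 µM libraries lay within 1.12-fold of each other, whereas the lowest and highest at 20 µM differed 6.58-fold. In 2 µM replicate 1 the level of hsp-6 was close to that in replicates 2 and 3. That library held 0.314% of counts in hypodermis genes, beside 0.00382 and 0.00360% in replicates 2 and 3, and 0.0737% in muscle genes, beside 0.00479 and 0.00471%. It held less of the pharynx genes (0.000110%, beside 0.00114% in each) and of the germline and oocyte genes (0.0157%, beside 0.0370 and 0.0362%). Sperm genes (0.145%, beside 0.150 and 0.148%) and neuron genes (0.00947%, beside 0.00787 and 0.00774%) differed less. The part of these tissues in the level was not tested.

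Between 2 and 20 µM heme the fitted log2 fold change of hsp-6 was 2.18 (SE 0.63), a 4.53-fold higher level at 2 µM with a 95% interval of 1.69 to 12.2. It ranked at position 482 of 13434 genes by p (edgeR, unadjusted p = 0.00720, adjusted p = 0.200). DESeq2 called this gene alone of the 7 (adjusted p = 0.0176), in a fit that called 6.89% of all genes, and its test of any difference also called hsp-6 alone (adjusted p = 0.0282, 11.4% of all genes called). In edgeR with 2 µM replicates 2 and 3 summed as 1 library, the log2 fold change for 2 against 20 µM was 2.22 (edgeR adjusted p = 0.445). DESeq2 was not run with this sum. Between 2 and 400 µM the log2 fold change was 1.54 (SE 0.61, edgeR adjusted p = 0.436), and between 400 and 20 µM it was 0.64 (SE 0.60, edgeR adjusted p = 0.615). That last value became 1.25 when 20 µM replicate 1 was left out and 0.19 when 20 µM replicate 3 was.

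The gene hsp-60 encodes the chaperonin of the mitochondrial matrix, a ring in which imported proteins fold. It had 91.1, 78.1 and 73.7 CPM with 2 µM, 34.2, 47.01 and 6.96 CPM with 20 µM, and 37.9, 38.2 and 25.4 CPM with 400 µM. Here too every library at 2 µM stood above every library of the other doses, and 20 and 400 µM overlapped. The lowest of all was 20 µM replicate 3, as for hsp-6. For 2 against 20 µM the log2 fold change was 1.46 (SE 0.62, 2.76-fold, 95% interval 1.04 to 7.28, edgeR adjusted p = 0.355), and for 2 against 400 µM it was 1.26 (SE 0.61, 2.39-fold, edgeR adjusted p = 0.519). Between 400 and 20 µM it was 0.20 (SE 0.61, edgeR adjusted p = 0.896), and without 20 µM replicate 3 it was −0.26.

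The protein of dnj-10 is a mitochondrial J-domain co-chaperone, of the kind that delivers substrates to Hsp70. Its levels were 27.6, 33.4 and 39.2 CPM with 2 µM, 6.85, 27.3 and 34.1 CPM with 20 µM, and 8.93, 10.1 and 11.1 CPM with 400 µM. Unlike for hsp-6 and hsp-60, 20 µM replicates 2 and 3 were close to or within the range of the 2 µM libraries, and only 20 µM replicate 1 was as low as those at 400 µM. The 2 and 400 µM libraries did not overlap. The log2 fold change was 1.73 for 2 against 400 µM (SE 0.55, 3.33-fold, 95% interval 1.39 to 7.95, edgeR adjusted p = 0.359), 0.55 for 2 against 20 µM (SE 0.54, edgeR adjusted p = 0.693) and −1.18 for 400 against 20 µM (SE 0.55, edgeR adjusted p = 0.290). With 20 µM replicate 1 left out, dnj-10 was called lower at 400 than at 20 µM (log2 fold change −1.61, edgeR adjusted p = 0.0344), in a fit that called 6.63% of all genes. The call was lost when 2 µM replicates 2 and 3 were also summed as 1 library (log2 fold change −1.61, edgeR adjusted p = 0.0828). Without 20 µM replicate 1 its log2 fold change for 2 against 20 µM was 0.14.

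The gene clpp-1 encodes the proteolytic subunit of the matrix ClpP protease, whose peptide products have been placed upstream of the nuclear response in the worm. It had 29.2, 37.5 and 40.6 CPM with 2 µM, 24.8, 8.81 and 7.08 CPM with 20 µM, and 27.9, 25.0 and 16.004 CPM with 400 µM. The 2 µM libraries were the 3 highest in CPM, although 2 µM replicate 1 and 400 µM replicate 1 were close. In the authors' FPKM values (scaled by gene length and library total) the order of these 2 libraries was reversed, at 45.8 and 48.9. In the same libraries the overlapping gene mdt-22 had 36.0, 7.60 and 8.68 CPM with 2 µM, 50.6, 7.72 and 3.89 CPM with 20 µM, and 33.8, 33.2 and 23.5 CPM with 400 µM. Within 20 µM and within 400 µM, replicate 1 was the highest library for both genes. Within 2 µM, replicate 1 was the highest for mdt-22 and the lowest for clpp-1. How far reads were exchanged between the pair was not tested.

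For 2 against 20 µM the log2 fold change of clpp-1 was 1.40 (SE 0.53, 2.64-fold, 95% interval 1.15 to 6.06, edgeR adjusted p = 0.317). Leaving out 20 µM replicate 1 took it to 2.18, and the gene was then called (edgeR adjusted p = 0.0473, 1.46% of all genes called). In that fit the test of any difference called clpp-1 and dnj-10, against 4.94% of all genes. With 2 µM replicates 2 and 3 also summed as 1 library, clpp-1 was no longer called for 2 against 20 µM (log2 fold change 2.13, edgeR adjusted p = 0.147), and the test of any difference called 0 of the 7 (lowest edgeR adjusted p = 0.114). For 400 against 20 µM the log2 fold change was 0.76 (SE 0.52, edgeR adjusted p = 0.471), or 1.53 without 20 µM replicate 1 and 0.46 without replicate 3. For 2 against 400 µM it was 0.64 (SE 0.52, edgeR adjusted p = 0.761).

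**Figure D1:**
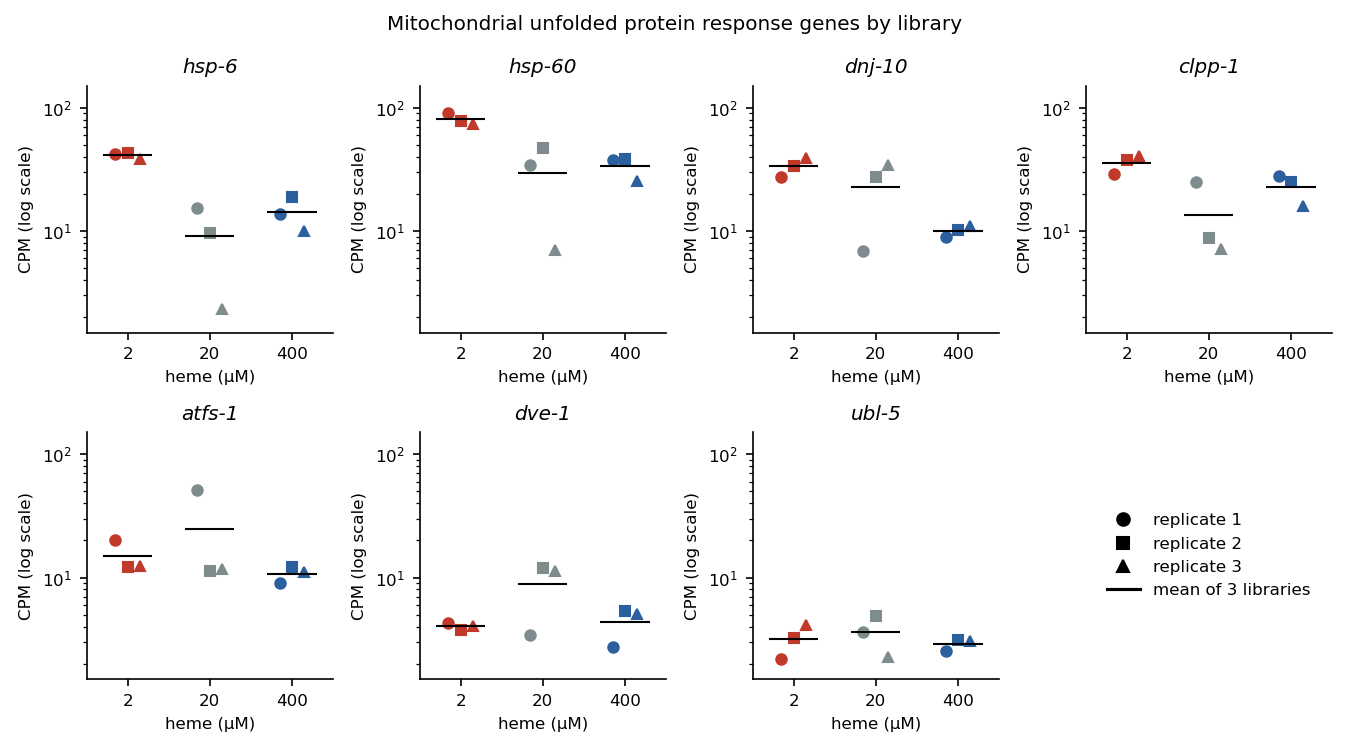
Level of each of the 7 genes in every library, in TMM-scaled CPM on a log axis, by heme dose (n = 3 libraries per dose; shapes are replicates and bars are means). The 3 libraries at 2 µM stand above all others for hsp-6, hsp-60 and clpp-1, dnj-10 is lowest at 400 µM on average, and atfs-1 is high in 20 µM replicate 1, at 51.1 CPM.

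The gene atfs-1 encodes the bZIP transcription factor of the response, which is governed largely through where the protein goes. It had 20.3, 12.2 and 12.5 CPM with 2 µM, 51.1, 11.3 and 11.6 CPM with 20 µM, and 8.98, 12.1 and 11.02 CPM with 400 µM. Apart from 20 µM replicate 1 and 2 µM replicate 1, all libraries lay between 8.98 and 12.5 CPM. The libraries at 2 µM were all above those at 400 µM, by a narrow margin (12.2 against 12.1 CPM at the nearest). The log2 fold change for 2 against 20 µM was −0.72 (SE 0.61, edgeR adjusted p = 0.645), and 0.39 without 20 µM replicate 1. For 400 against 20 µM it was −1.21 (SE 0.62, edgeR adjusted p = 0.332), and −0.10 without that library. For 2 against 400 µM it was 0.49 (SE 0.61, edgeR adjusted p = 0.869), with 0.17 without 2 µM replicate 1.

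The homeodomain protein DVE-1 gathers at loosened chromatin during the response. Its gene dve-1 had 4.25, 3.76 and 4.06 CPM with 2 µM, 3.41, 12.0 and 11.2 CPM with 20 µM, and 2.72, 5.34 and 5.09 CPM with 400 µM. At 20 µM, replicates 2 and 3 were the highest of all libraries and replicate 1 was below every library at 2 µM, so the groups overlapped. The log2 fold change was −1.14 for 2 against 20 µM (SE 0.54, edgeR adjusted p = 0.399) and −1.02 for 400 against 20 µM (SE 0.54, edgeR adjusted p = 0.345).

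The small ubiquitin-like protein UBL-5 is a partner of DVE-1. It had the lowest mean CPM of the set, from 72 to 304 counts per library, and the levels of ubl-5 were 2.17, 3.24 and 4.13 CPM with 2 µM, 3.62, 4.90 and 2.26 CPM with 20 µM, and 2.52, 3.12 and 3.08 CPM with 400 µM. All groups overlapped. The log2 fold change was −0.18 between 2 and 20 µM, −0.31 between 400 and 20 µM and 0.13 between 2 and 400 µM (SE 0.51 for each), and the 95% interval of the first ran from 0.398 to 1.97-fold.

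**Figure D2:**
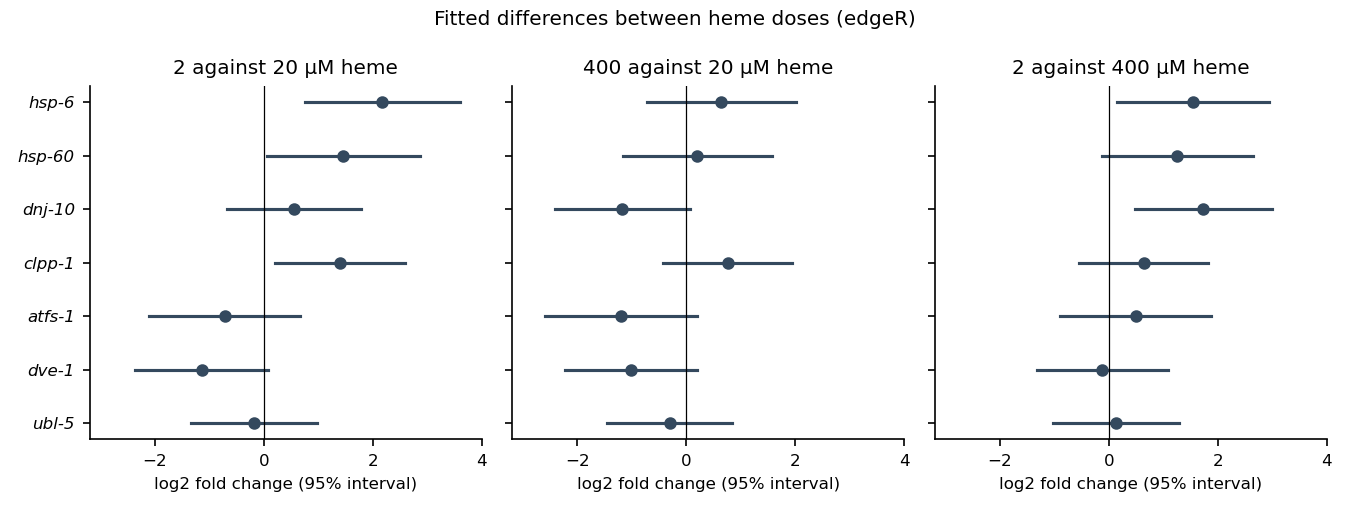
Log2 fold changes of the 7 genes with 95% intervals from the edgeR fit of all 9 libraries, 1 panel per comparison (positive means higher at the dose named first in the panel). The intervals of hsp-6, hsp-60 and clpp-1 lie above 0 for 2 against 20 µM, those of hsp-6 and dnj-10 for 2 against 400 µM, and none of the 7 passed after adjustment over all genes.

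Counted over the set, the unadjusted p was under 0.05 for 3 of 7 genes between 2 and 20 µM (hsp-6, clpp-1 and hsp-60), for 0 of 7 between 400 and 20 µM and for 2 of 7 between 2 and 400 µM (dnj-10 and hsp-6). Among all genes tested these shares were 13.4, 18.5 and 10.6%. In the test of any difference 2 of 7 reached it (hsp-6 and dnj-10), against 16.6% of all genes. All 3 libraries at 2 µM stood above all 3 with 20 µM for 3 of 7 genes, where this held for 12.7% of all genes tested. They stood above all 3 with 400 µM for 5 of 7 (all but dve-1 and ubl-5), against 14.4% of all genes. These counts are in CPM, and for clpp-1 and atfs-1 the gap to 400 µM did not hold on every scale used here. The 400 and 20 µM libraries overlapped for all 7, and 24.1% of all genes had no overlap there. The comparisons share libraries, so these counts do not support each other. The median log2 fold change of the 7 was 0.55 between 2 and 20 µM, −0.31 between 400 and 20 µM and 0.64 between 2 and 400 µM, beside 0.12, −0.03 and 0.02 for all genes tested.

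For 2 against 400 µM, limma-voom with sample weights called 4 of the 7, with adjusted p = 0.00134 for dnj-10, 0.00288 for hsp-6, 0.0141 for hsp-60 and 0.0302 for clpp-1. That fit called 27.3% of all genes. When only the libraries at 2 and 400 µM entered the edgeR fit, dnj-10 was called (adjusted p = 0.0339, 2.24% of all genes called) and hsp-6 was not (adjusted p = 0.0529). Both fits kept 2 µM replicates 2 and 3 as separate libraries, and neither was run with these summed. In the edgeR fit of all doses with the sum, 0 of the 7 were called for 2 against 400 µM (lowest edgeR adjusted p = 0.694), and 0 of all genes.

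**Figure D3:**
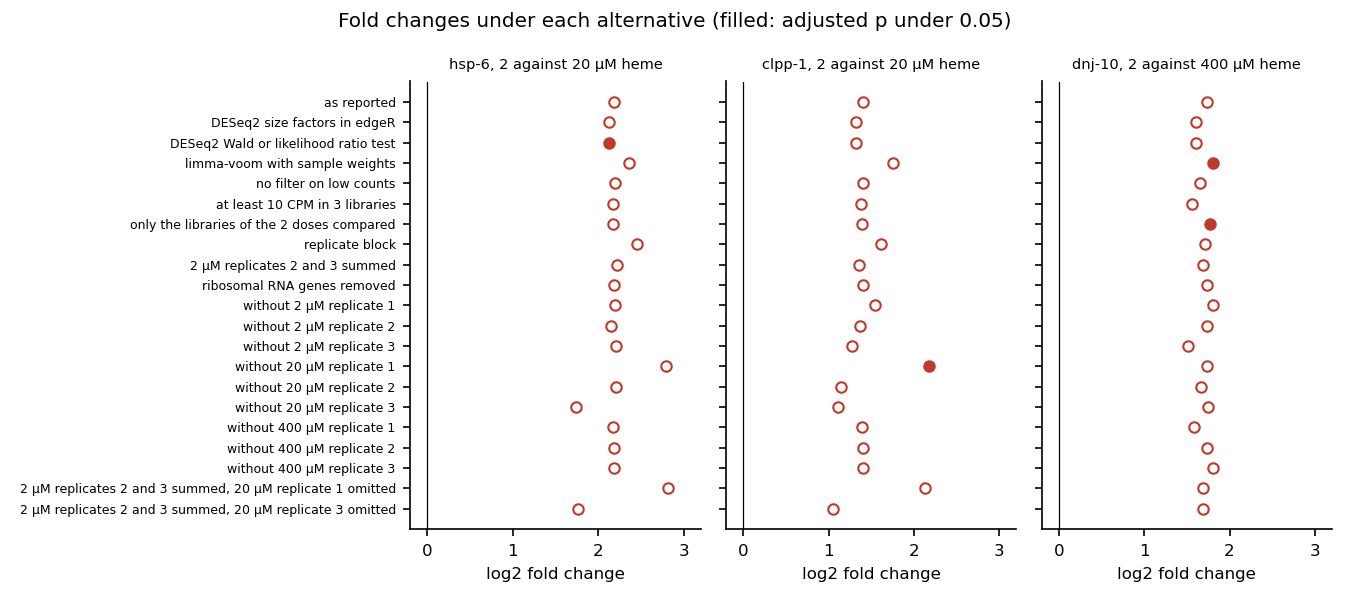
Log2 fold change of hsp-6 and clpp-1 for 2 against 20 µM heme and of dnj-10 for 2 against 400 µM under each alternative (filled points have an adjusted p under 0.05, open points do not). All values are above 0, and those of hsp-6 run from 1.74 to 2.82.

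Levels can be set beside each other between genes only per length, which the authors' FPKM values allow (scaled by gene length and library total, with ribosomal RNA in the total). The means over the 9 libraries were 35.4 ± 19.5 FPKM for clpp-1 (SD), 28.2 ± 17.7 for hsp-60, 14.6 ± 8.73 for dnj-10, 13.9 ± 5.19 for ubl-5, 10.8 ± 8.39 for hsp-6, 9.74 ± 4.43 for atfs-1 and 2.55 ± 1.54 for dve-1. Neighbours in this order differ by less than the larger SD of the pair, except atfs-1 and dve-1. These SDs run over all 9 libraries and so include the differences between doses. The gene dve-1 was the lowest of the 7 in 7 of the libraries. The order differed by dose: hsp-6 averaged 21.6 ± 1.69 FPKM and ubl-5 14.7 ± 4.36 with 2 µM, against 3.48 ± 2.38 and 13.3 ± 9.23 with 20 µM, and 7.50 ± 1.67 and 13.8 ± 1.36 with 400 µM (SD, n = 3 each). In 20 µM replicates 2 and 3 the lowest was hsp-6. The FPKM ratio of hsp-60 to hsp-6, which does not depend on how libraries are scaled, was 2.49, 2.10 and 2.23 at 2 µM, 2.59, 5.63 and 3.49 with 20 µM, and 3.21, 2.33 and 2.94 with 400 µM. The ratio at 2 µM was below that of all 3 libraries at 20 µM, and 2 and 400 µM overlapped.

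A scale taken from other genes of the organelle gave hsp-6, hsp-60, dnj-10 and clpp-1 the same order of mean levels by dose as CPM. The 70 measured genes for mitochondrial ribosomal proteins, which build the organelle's translation machinery, held 756, 777 and 771 unscaled CPM with 2 µM, 333, 1063 and 375 with 20 µM, and 814, 629 and 769 with 400 µM. Per 1000 of these counts, hsp-6 had 62.3, 61.4 and 53.5 counts with 2 µM, 27.4, 10.7 and 4.45 with 20 µM, and 20.9, 29.2 and 15.6 with 400 µM. All libraries at 2 µM were again above all others. For hsp-60 the means on this scale were 116 ± 15.96 counts with 2 µM, 42.4 ± 25.5 with 20 µM and 52.2 ± 10.9 with 400 µM (SD, n = 3 each), without overlap between 2 µM and the other doses. For clpp-1, 20 µM replicate 1, at 44.5 counts, was above 2 µM replicate 1, at 43.0, so these doses overlapped here though not in CPM. For dnj-10 the libraries ran from 40.6 to 54.8 counts with 2 µM, 12.3 to 65.4 with 20 µM and 13.7 to 17.3 with 400 µM. The regulators dve-1 and ubl-5 averaged 5.78 ± 0.440 and 4.54 ± 1.30 counts with 2 µM, 13.7 ± 7.74 and 5.43 ± 1.08 with 20 µM, and 6.79 ± 2.28 and 4.50 ± 0.555 with 400 µM. For atfs-1 the counts were 29.9, 17.5 and 17.5 with 2 µM, 91.8, 12.6 and 22.3 with 20 µM, and 13.8, 18.6 and 17.2 with 400 µM. The 2 and 400 µM libraries of atfs-1 thus overlapped here though not in CPM.

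**Figure D4:**
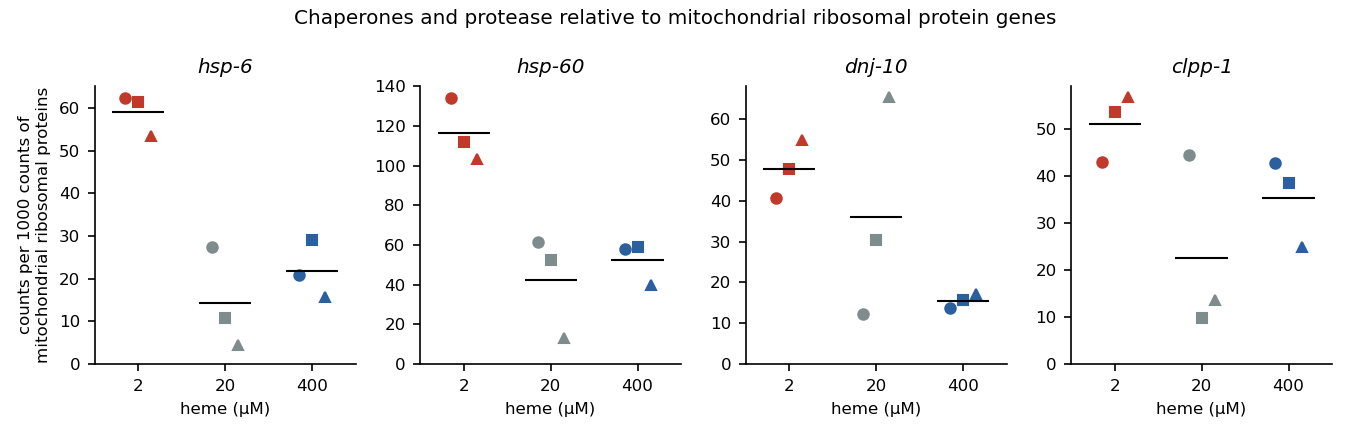
Counts of hsp-6, hsp-60, dnj-10 and clpp-1 per 1000 counts of the 70 mitochondrial ribosomal protein genes in the same library, by heme dose (circle, square and triangle are replicates 1, 2 and 3, bars are means, n = 3 libraries per dose). For hsp-6 the 2 µM libraries lie between 53.5 and 62.3, above the highest of the other doses at 29.2.

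The libraries at 20 µM varied most, and the 7 genes shared in this, though ubl-5 only slightly (2.17-fold, beside 1.91-fold at 2 µM). For hsp-6, hsp-60, dnj-10, clpp-1, atfs-1, dve-1 and ubl-5 the highest library at 20 µM was 6.58, 6.76, 4.98, 3.50, 4.51, 3.50 and 2.17 times the lowest. The median of this ratio over 4516 genes with a mean of at least 10 CPM was 3.49 with 20 µM, 1.72 at 2 µM and 1.62 with 400 µM. The means of dve-1 (5.76 CPM) and ubl-5 (3.23 CPM) lie below that limit. The genes did not vary in step: replicate 1 was the highest of the 3 libraries at 20 µM for hsp-6, clpp-1 and atfs-1 and the lowest for dnj-10 and dve-1, whereas replicate 3 was lowest for hsp-6, hsp-60, clpp-1 and ubl-5.

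Other genes of mitochondrial protein handling were looked at in lists chosen by function. Of 4 other chaperone genes, 11 other proteases and 15 genes of protein import, none passed after adjustment over all genes in any comparison of 2 doses. The log2 fold change for 2 against 20 µM was above 0 for 4 of 4, 7 of 11 and 14 of 15, with medians of 0.82, 0.82 and 0.91 beside 0.12 for all genes tested. For 2 against 400 µM the medians were 0.80, 0.89 and 0.63, beside 0.02, and for 400 against 20 µM they were 0.06, −0.29 and 0.13, beside −0.03. The libraries at 2 µM stood clear above those at 20 µM for 2 of 4, 6 of 11 and 6 of 15 genes, where this held for 12.7% of all genes tested. They stood above those at 400 µM for 3 of 4, 7 of 11 and 8 of 15, beside 14.4% of all genes.

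Among the proteases, rom-5, a rhomboid protease, had 47.3, 29.8 and 31.6 CPM with 2 µM, 6.01, 9.60 and 3.79 CPM with 20 µM, and 5.53, 8.39 and 5.55 CPM with 400 µM. Its log2 fold change was 2.48 (SE 0.46) for 2 against 20 µM and again 2.48 (SE 0.46) for 2 against 400 µM (edgeR adjusted p = 0.0971 and 0.109). The inner-membrane AAA protease gene ymel-1 averaged 22.5 ± 1.10 CPM with 2 µM, 10.1 ± 2.33 CPM with 20 µM and 8.29 ± 0.936 CPM with 400 µM (SD, n = 3 each), with log2 fold changes of 1.16 and 1.44 for 2 against 20 and against 400 µM (edgeR adjusted p = 0.192 and 0.177). For ppgn-1, a paraplegin-like protease, the means were 15.01 ± 2.98, 7.20 ± 0.842 and 5.88 ± 1.17 CPM in the same order of doses. The widest gap between 400 and 20 µM in this list was at K07A3.3, included by its locus name, with 8.68, 0.144 and 2.43 CPM with 400 µM and 0, 0.274 and 0 CPM with 20 µM, the highest being 400 µM replicate 1 (edgeR adjusted p = 0.206).

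In the chaperone list, the locus C34C12.8 had 17.03, 25.6 and 22.2 CPM with 2 µM, 5.78, 11.2 and 8.27 CPM with 20 µM, and 8.35, 8.50 and 9.66 CPM with 400 µM. Its log2 fold change was 1.36 (SE 0.37) for 2 against 20 µM and 1.29 (SE 0.37) for 2 against 400 µM (edgeR adjusted p = 0.175 and 0.296). Of the import genes, tin-44, for a subunit of the inner-membrane import motor, averaged 28.4 ± 2.73, 10.8 ± 5.36 and 11.1 ± 3.28 CPM at 2, 20 and 400 µM (SD, n = 3 each). The import receptor gene tomm-70 followed the order seen for dnj-10, with 43.5, 45.8 and 48.7 CPM with 2 µM, 12.2, 48.5 and 29.3 CPM with 20 µM, and 13.8, 15.9 and 15.2 CPM with 400 µM. Its log2 fold change for 2 against 400 µM was 1.62 (SE 0.49, edgeR adjusted p = 0.327).

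A list of 7 transcripts was kept as possible readouts of ATFS-1 activity, and again none was called. Its membership rests on general knowledge of the worm and not on the labels, and several of its loci carry no gene name in the table. The list was chosen with earlier results of these data known, so its counts and medians only describe these transcripts. Whether ATFS-1 activity differed between doses was not tested. All 7 had a log2 fold change above 0 for 2 against 20 µM and for 2 against 400 µM, with medians of 2.05 and 2.31. The 2 µM libraries stood above all 20 µM libraries for 6 of 7, beside 12.7% of all genes tested, and above all 400 µM libraries for 7 of 7, beside 14.4%. For 400 against 20 µM the median was 0.00, or 0.03 with C07G1.7 left out. The C-type lectin gene clec-47 had 3952, 4965 and 4635 CPM with 2 µM, 458, 325 and 594 CPM with 20 µM, and 425, 858 and 429 CPM with 400 µM (log2 fold change 3.298, SE 0.54, edgeR adjusted p = 0.0930 for 2 against 20 µM). The locus K09E9.1 had 16.7, 19.6 and 17.3 CPM with 2 µM, 5.53, 3.21 and 4.20 CPM with 20 µM, and 3.06, 4.37 and 3.37 CPM with 400 µM (log2 fold change 2.31, SE 0.37, edgeR adjusted p = 0.0665 for 2 against 400 µM). Counts of C07G1.7 were 0 in all libraries at 20 and 400 µM. Taking 3 counts over the whole group as the floor, its mean at 2 µM was at least 48.6 times that at 20 µM (edgeR adjusted p = 0.234). The 2 µM libraries had 0.185, 1.36 and 1.74 CPM, so that mean rests mostly on replicates 2 and 3, which resembled each other closely. The bound does not hold for replicate 1 alone. The list also holds hrg-9, a heme trafficking gene listed as R186.1, and cdr-2, a cadmium-responsive gene.

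Genes that act on the signal, 14 in all, had a median log2 fold change of −0.31 between 2 and 20 µM, −0.71 between 400 and 20 µM and 0.10 between 2 and 400 µM, and none was called. For jmjd-1.2, a histone demethylase, the means were 22.4 ± 4.21, 50.3 ± 32.7 and 19.2 ± 3.83 CPM at 2, 20 and 400 µM. The gene zip-3, for a bZIP protein known as a repressor of ATFS-1, averaged 158 ± 22.6, 93.6 ± 43.2 and 85.5 ± 6.34 CPM in the same order. For haf-1, a mitochondrial peptide exporter, the means were 5.38 ± 2.38, 6.80 ± 3.67 and 2.23 ± 0.599 CPM, with a log2 fold change of −1.61 for 400 against 20 µM (SE 0.59, edgeR adjusted p = 0.210). The 70 mitochondrial ribosomal protein genes had medians of 0.16, 0.08 and 0.10 for 2 against 20, 400 against 20 and 2 against 400 µM, close to the 0.12, −0.03 and 0.02 of all genes, and none was called.

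**Figure D5:**
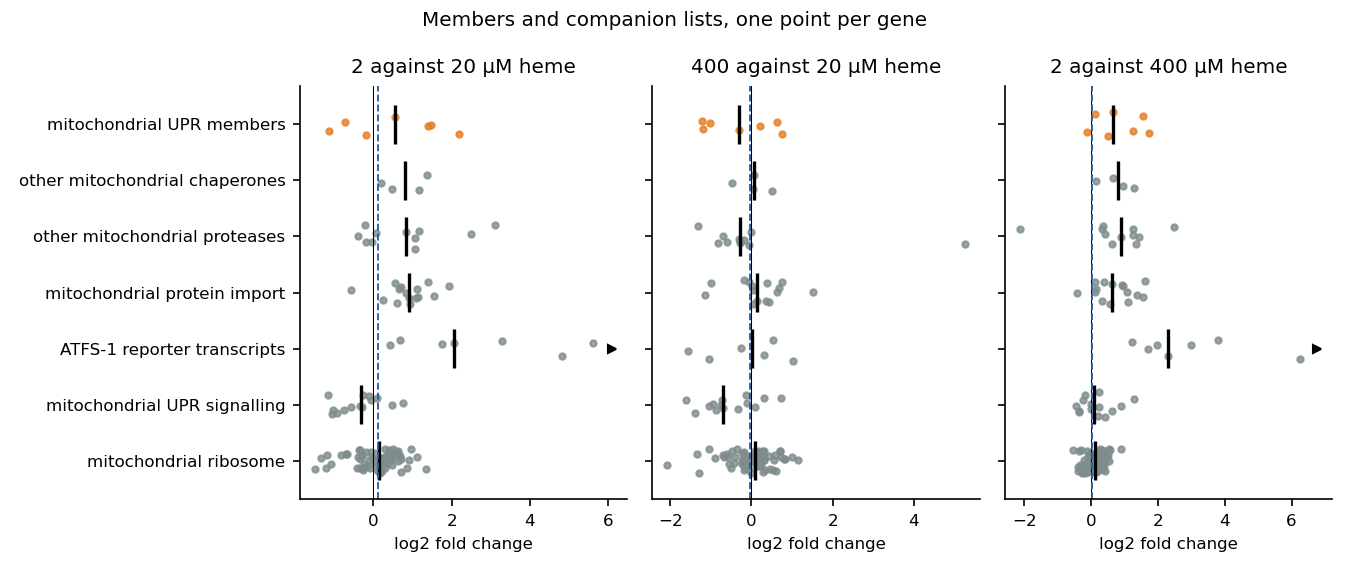
Log2 fold changes of the 7 genes (orange) and of the companion lists (grey), 1 point per gene and 1 panel per comparison; black bars are list medians and the dashed line is the median of all genes tested. A black arrowhead stands beside the lower bound for C07G1.7, which had 0 counts at 20 and 400 µM and is left out of the middle panel. For 2 against 20 µM the medians of chaperones, proteases, import genes and possible ATFS-1 readouts lie between 0.82 and 2.05.

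The genes whose profile over the 9 libraries lay nearest to that of hsp-6, by root mean square distance between centred log2(CPM + 0.5) values among 4516 genes, were cchl-1 (0.30), hsp-60 (0.39), phb-2 (0.42), enol-1 (0.43) and C41G7.9 (0.44). The median distance over all genes was 1.37. The product of cchl-1 is a cytochrome c heme lyase, which attaches heme to cytochrome c in mitochondria, that of phb-2 is a prohibitin of the inner mitochondrial membrane, and that of enol-1 is the glycolytic enolase. Mean levels of cchl-1 were 53.2 ± 23.02 CPM with 2 µM, 13.2 ± 8.58 CPM with 20 µM and 20.7 ± 6.59 CPM with 400 µM, and those of phb-2 were 64.7 ± 12.4, 16.7 ± 7.72 and 29.9 ± 3.53 CPM (SD, n = 3 each).

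Nearest to hsp-60 were atad-3 (0.30), which encodes a mitochondrial inner-membrane ATPase, tomm-20 (0.31), an import receptor of the outer membrane, enol-1 (0.33), nra-4 (0.34) and phb-2 (0.36), where the median over all genes was 1.24. Of the other members, hsp-6 stood at rank 7 from hsp-60 and clpp-1 at rank 180. From hsp-6, clpp-1 stood at rank 35. The distances of dnj-10 (1.40) and atfs-1 (1.27) from hsp-6 were close to that of the median gene. The points share the libraries' depth, scaling and tissue makeup, and the distances are a description of these 9 libraries only.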

How the data were processed

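Gene-level RNA-seq counts of 9 libraries, 3 at each of 3 heme doses, were analysed. Value columns of the deposited table left unused numbered 0. This table gives raw counts per gene and FPKM values computed by the authors, per the file headers. Bowtie 0.12.2 and the WBcel235 build are named in the submitters' processing notes. How reads were assigned to genes, and whether strand was used, is not given in the sources used here. FPKM served to compare levels between genes and, for clpp-1 and ubl-5, to see the order of libraries or doses under another scaling. Positions are from Ensembl annotation 115 of the same build.

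After filterByExpr removed low genes, TMM factors were computed and a quasi-likelihood model with a term for each dose was run on all libraries together (edgeR 4.0.16 under R 4.3.3). P-values were adjusted by the Benjamini-Hochberg method over all 13434 genes tested, with a threshold of 0.05. The biological coefficient of variation was 0.961. DESeq2 1.42.0 and limma 3.58.1 were alternatives. Intervals of fold changes come from the edgeR fit and cover the spread between libraries. The floor of 3 counts, taken over the 3 libraries of a dose together, covers counting error only.

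Alternatives were other scaling, filters, tools, libraries of both doses only, a replicate block, removal of ribosomal RNA, and leaving out each library. The 7 members, the lists and the alternatives were chosen with earlier results of these data known. Named genes are all members, up to 3 genes of each companion list per comparison with the smallest p, and the 5 genes nearest in profile to hsp-6 and to hsp-60. In the signalling list, atf-4 stands in the table as atf-5. R186.1 and C07G1.7 are mentioned beside that rule, after their values were seen.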

Additional observations from a re-analysis of the deposited data

How the results depend on the processing

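Of 414 fold changes of the 7 genes recomputed under other settings, 395 kept their direction and their side of the threshold, 8 passed the threshold with the same direction and 11 changed sign. Members called, 0 of 7 in edgeR for every comparison, numbered 1 under DESeq2 for 2 against 20 µM and for any difference. For 2 against 400 µM they numbered 4 under limma-voom and 1 with only the libraries of both doses. Leaving out 1 library gave 0 to 1 members in both comparisons with 20 µM, 0 for 2 against 400 µM and 0 to 2 for any difference, in each case above 0 only without 20 µM replicate 1. Sign changes came to log2 fold changes of 0.39 and, with 2 µM replicates 2 and 3 summed, 0.52 for atfs-1 (2 against 20 µM, without 20 µM replicate 1), and −0.26 with or without that sum for hsp-60 (400 against 20 µM, without 20 µM replicate 3). For ubl-5 they were 0.06 and 0.0855 (2 against 20 µM, without 2 µM replicate 1 or 20 µM replicate 2), 0.0210 (400 against 20 µM, without 20 µM replicate 2), and −0.18 and −0.03 (2 against 400 µM, without 2 µM replicate 3 or 400 µM replicate 1). For dve-1 (2 against 400 µM) they were 0.0045 with the replicate block and 0.0421 without 400 µM replicate 2. Leaving out 1 library moved these from −1.10 to 0.39 for atfs-1 and from −0.26 to 0.76 for hsp-60, from −0.42 to 0.0855, −0.55 to 0.0210 and −0.18 to 0.30 for ubl-5 in the order given, and from −0.45 to 0.0421 for dve-1. The cause was not tested. The settings that sum these replicates and also omit a 20 µM library were chosen after seeing the data. Under the filter of at least 10 CPM, dve-1 and ubl-5 were not tested.

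Over all genes, edgeR called 10, 74, 14 and 109 for 2 against 20, 400 against 20, 2 against 400 µM and any difference. DESeq2 called 926, 1654, 590 and 1531, limma-voom 253, 0, 3670 and 208, edgeR without the low-count filter 18, 147, 29 and 1.71 times the 109, and with the 10 CPM filter 26, 42, 60 and 163. With 2 µM replicates 2 and 3 summed the counts were 0, 0, 0 and 2, and with 20 µM replicate 1 omitted as well 2, 0, 15 and 20. With only the libraries of both doses the first 3 were 0, 0 and 284. Without 20 µM replicate 1 the counts were 210, 953, 54 and 710, and without 1 of the other libraries they ran from 0 to 10, 0 to 135, 0 to 53 and 1 to 114. Without 20 µM replicate 1 the median over all tested genes stood at a log2 value of 0.40 for 2 against 20 µM and 0.32 for 400 against 20 µM, beside 0.12 and −0.03 with all libraries.

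Same-numbered libraries were not treated as pairs, since their deviations correlated above 0.1 in 6 of 9 pairs and not in all. The correlations were 0.207 to 0.369 for numbers 1 and 3 and −0.0569 to 0.0133 for number 2, so the data leave pairing unsettled. Not every library correlated best with its own number. With the number as a replicate block, 0 of the 7 were called, hsp-6 had a log2 fold change of 2.45 for 2 against 20 µM (edgeR adjusted p = 0.199), and 2, 0, 4 and 14 of all genes were called. The fewest counts of a member in a library were 72 for ubl-5 and 74 for hsp-6, both in 20 µM replicate 3.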
